A study of Drosophila melanogaster with 3 samples.

Results

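The cytosolic ribosome of Drosophila melanogaster is built from ribosomal RNA and from the proteins encoded by the RpL genes (large subunit), the RpS genes and sta (small subunit) and the RpLP genes (the stalk of the large subunit). A gene was included when it was protein-coding, lay on one of the 6 main chromosome arms and had a symbol that starts with RpL or RpS followed by a digit or P in the Ensembl annotation, and sta was added. This gave 93 of 13945 protein-coding genes, of which 50 were of the large subunit and 39 of the small subunit. The other 4 were grouped as stalk genes by their RpLP symbol alone, RpLP0-like included. Genes ending in "-like" were kept, since the symbol was the only criterion. Bound genes are those with a foxo summit at most 1000 bp from an annotated transcription start site (TSS). A summit is the base with the highest signal in a peak.

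The assay was chromatin immunoprecipitation sequencing (ChIP-seq) of foxo, the forkhead transcription factor that insulin signalling keeps out of the nucleus. The animals were wandering larvae of the third instar of the line foxo-MiMIC-GFP, in which an eGFP exon sits in an intron of foxo, so that the tagged protein is made from the endogenous locus. Males and females were pooled and used as whole organisms, and the antibody was directed against GFP. There were 3 biological replicates of 1 group. Untagged and input libraries were not analysed here, and foxo-dependent and foxo-independent signal cannot be told apart. A whole larva mixes all its tissues, and neither can strong binding in few cells and weak binding in many.

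The optimal list is the set of 9766 peaks that passed the authors' test of reproducibility between replicates, the irreproducible discovery rate (IDR). Each replicate and the pool of all 3 also has a relaxed list of 30000 regions, which includes background. The 9766 regions with the highest signal in a replicate are called its top list here. Signal is the height that the authors' peak caller gave to a peak. How it was normalized is not stated in the labels, so it was read only as a rank within 1 list (rank 1 is the highest). Peak lists do not show the sequencing depth, and all intervals are 95% Wilson intervals that cover counting error only. Replicate 2 stood apart from the other 2 at the ribosomal protein genes, as given below. The main counts are therefore also given for optimal peaks in the top lists of the other 2. The optimal list itself was made from all 3 replicates, so this does not remove replicate 2 fully.

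Ribosomal protein genes are among the most actively transcribed genes of growing cells. Many of them start at a polypyrimidine initiator, the TCT motif, in place of the usual initiator, and in Drosophila their transcription uses the TBP-related factor Trf2. Binding sites for Dref (the DRE) and for M1BP (the motif Ohler 1) are known from fly promoters of housekeeping genes, including ribosomal protein genes. In flies foxo is best known as an activator of genes such as Thor, which encodes the translational repressor 4E-BP.

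Promoter sequences of 5 genes show the settings in which the summits were found. Each stretch runs from 110 bases before the outermost annotated start to 30 bases from it, 5′ to 3′ on the strand of the gene, and was read from the RefSeq copy of the Release 6 genome, the assembly named dm6. Capitals mark the TCT motif (CCTTT or TCTTT on the sense strand, with the C of CTTT within 10 bp of a start), the DRE (TATCGATA), Ohler 1 (GGTCACAC) and the forkhead core (ATAAACA or its variants ATAAATA and further GTAAACA and likewise GTAAATA). The last 3 were searched on both strands, and neighbouring TCT matches can overlap each other. RpL34b (chr3R:9401197-9401336, minus strand) is shown as the member with the highest signal, and its summit lay at -96 bp from the shown start. RpL34a (chr3R:26059238-26059377, minus strand) is its paralog and has a DRE, with the summit at -78 bp. RpL14 (chr3L:8600896-8601035, plus strand) shows a TCT start with no DRE or Ohler 1, with the summit at -58 bp. RpLP1 (chr2L:419842-419981, plus strand), a stalk gene, holds Ohler 1 and TCT, with the summit at -60 bp. RpS27A (chr2L:10408242-10408381, plus strand) has a TCT start and a forkhead core but no optimal summit.
RpL34b: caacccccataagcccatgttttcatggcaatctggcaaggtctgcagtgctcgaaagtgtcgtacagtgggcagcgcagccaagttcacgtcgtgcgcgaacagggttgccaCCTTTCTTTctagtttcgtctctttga
RpL34a: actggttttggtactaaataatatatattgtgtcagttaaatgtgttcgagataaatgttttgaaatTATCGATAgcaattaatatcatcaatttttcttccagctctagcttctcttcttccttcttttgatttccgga
RpL14: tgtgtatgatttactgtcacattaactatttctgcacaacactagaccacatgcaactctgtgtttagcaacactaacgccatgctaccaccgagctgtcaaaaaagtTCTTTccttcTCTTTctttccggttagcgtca
RpLP1: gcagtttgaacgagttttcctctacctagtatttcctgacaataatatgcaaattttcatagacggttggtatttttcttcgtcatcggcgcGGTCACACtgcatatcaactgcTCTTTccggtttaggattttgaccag
RpS27A: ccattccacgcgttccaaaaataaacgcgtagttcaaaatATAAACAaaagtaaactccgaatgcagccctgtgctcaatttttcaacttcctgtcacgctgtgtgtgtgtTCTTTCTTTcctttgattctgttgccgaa

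Most ribosomal protein genes carried a foxo summit close to the start. In the optimal list 72 of 93 were bound (77.4%, 67.9 to 84.7), where 32.8% of all protein-coding genes were. The top lists gave 78 members in replicate 1, against 35.6% of all genes. They gave 65 members in replicate 2, against 31.5%, and 74 in replicate 3, against 33.2%. All 3 replicates thus had the larger share among the members, at 77.8% ± 7.16 (SD, n = 3) against 33.4% ± 2.05 for all genes. In the top lists of all 3 replicates at once stood 62 members (66.7%) and 26.8% of all genes, while 13 members (14.0%) stood in none. In the pooled relaxed list, with its 30000 regions, 77 members had a region, where 48.0% of all genes did. With 1 group and 3 replicates, an exact two-sided sign-flip test cannot go below p = 0.25, so no test was made of these shares.

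**Figure D1:**
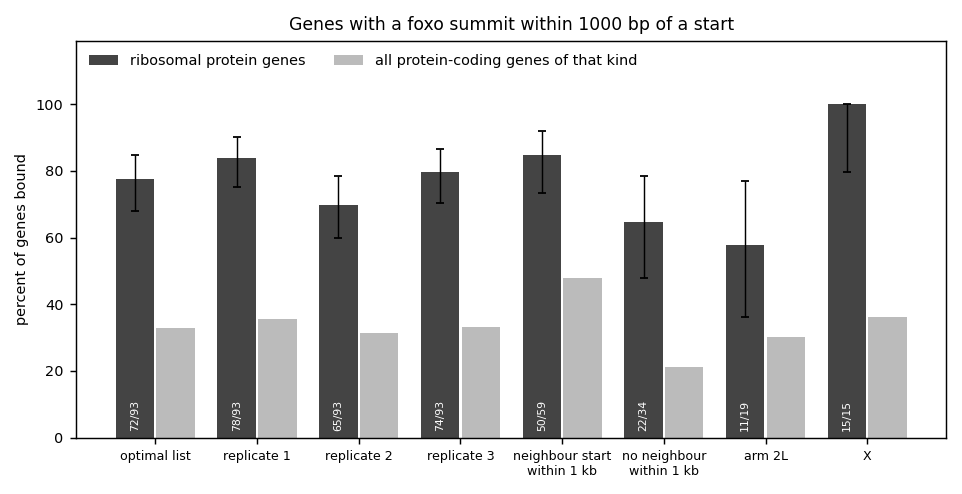
Percent of genes with a foxo summit within 1000 bp of a start, for ribosomal protein genes (dark bars, with 95% Wilson intervals and counts) and for all protein-coding genes of the same kind (light bars). The 4 left pairs are the optimal list and the replicate top lists, and the 4 right pairs split the genes by a neighbouring start and by arm. Of the arms only 2L and X are drawn, the lowest and the highest of the large ones. The members lie above all genes in each pair, from 57.9% on arm 2L to 100% on X.

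The parts of the ribosome had similar shares. Of the large subunit genes 38 of 50 were bound (76.0%), and of the small subunit genes 30 of 39 (76.9%). Of the genes grouped as stalk by symbol, which include RpLP0-like, 4 of 4 were. Ribosomal protein genes are short, with a median of 1318 bp against 2166 bp for all genes. A start of another protein-coding gene lay within 1000 bp at 59 of the 93 members, and at 42.9% of all genes. Of all protein-coding genes in the length range of the members (304 to 4677 bp), 27.8% were bound. Of the 59 members with a start of another gene within 1000 bp, 50 were bound (84.7%), where 48.0% of all such genes were. Of the 34 members without such a neighbour, 22 were bound (64.7%, 47.9 to 78.5), where 21.3% of all such genes were. The share was thus above that of all genes with and without a neighbour.

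Position on the chromosomes and gene structure went with differences in the share. All 15 members on X were bound, where 36.2% of all genes on X were, while on arm 2L 11 of 19 were (57.9%, 36.3 to 76.9), where 30.2% of all genes were. Between these extremes, 17 of 21 were bound on 2R (81.0%, all genes 31.4%) and 12 of 14 on 3L (85.7%, all genes 33.3%). On 3R 16 of 23 were (69.6%, all genes 33.7%). Among the unbound members on 2L were RpL9, RpS26 and RpS27A. These stood in the top lists of 2 or 3 replicates but had no pooled region within 1000 bp of a start. RpS3A, the only member on chromosome 4, was bound with signal 452. Of the 6 members without an intron 2 were bound (33.3%, 9.68 to 70.0), where 16.4% of all intron-free genes were. Of the 87 with introns 70 were (80.5%), where 35.7% of all genes with introns were. The share was thus higher with introns among all genes too. Of the intron-free members 5 belong to paralog families, and 1 of these was bound. The part of paralog status in this difference was not tested. Within 29 members, on the same strand, lie snoRNA genes (76 in all), which encode guides for the modification of ribosomal RNA. Of these host genes 27 were bound (93.1%, 78.0 to 98.1), against 45 of 64 other members (70.3%, 58.2 to 80.1). Of the other protein-coding genes that hold a snoRNA gene, 32 of 55 were bound (58.2%). RpS5a, with 14 snoRNA genes, was bound with signal 592, and RpS7, with 7, with signal 284.

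The members were frequently bound, but their signal was close to that of all bound genes. The signal of the highest summit ranged from 162 to 2164 over the 72 bound members, with a median of 461.7. The median over all bound genes was 460.5, and over all peaks of the optimal list it was 321.4. The median rank was 3248 for the members and 3249 for all bound genes. Of the 72 members 11 (15.3%) were among the highest 10% of the optimal list, against 18.3% of all bound genes. Among the 4883 highest peaks stood 52 of them (72.2%), against 67.1% of all bound genes.

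Summits of the members lay just before the start. The median position was -45.5 bp, with the middle 50% of summits between -81.8 and -16.0 bp, and the median over all bound genes was -129 bp. Between -100 and -1 bp lay 49 of 72 summits (68.1%, 56.6 to 77.7), against 24.0% for all bound genes. Within 100 bp on either side lay 57 (79.2%), against 31.0%. Upstream of the nearest start were 63 (87.5%), against 81.2%, and over 500 bp away were 4 (5.56%), against 18.8%. The median position was -34.5 bp in replicate 1, -66.0 bp in replicate 2 and -35.5 bp in replicate 3. All 3 replicates had the median upstream of the start and within 100 bp of it. By the annotation of protein-coding genes, 50 summits were intergenic, 17 were in untranslated exons and 5 were in introns. In coding exons lay 0 of 72, which allows a share of up to 5.07%. Shares of all bound genes are not given for these classes, so they are not to be read as traits of the members. A single optimal summit was the rule, and 17 members (23.6%) had 2 or more, against 29.1% of all bound genes.

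**Figure D2:**
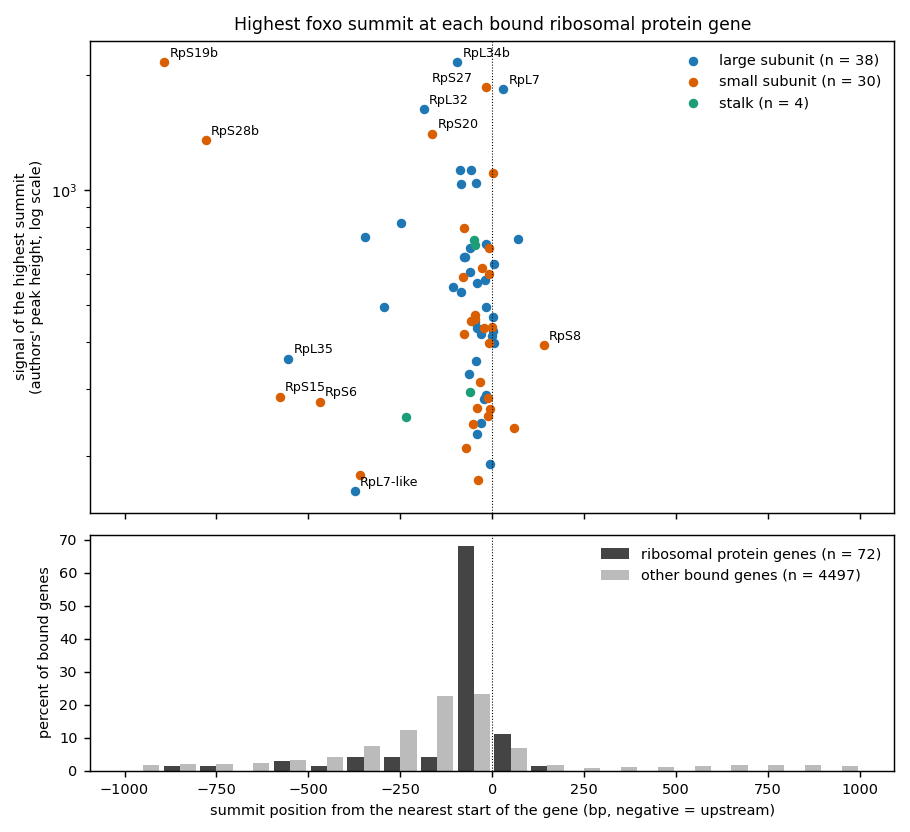
Upper panel: signal of the highest foxo summit (log scale) against its position from the nearest annotated start, 1 point per bound gene, coloured by ribosomal subunit. Lower panel: percent of summits in bins of 100 bp for the 72 bound ribosomal protein genes (dark) and the 4497 other bound genes (light); the dark bar just before the start holds 68.1% of the members, and the few far summits (RpS19b, RpS28b, RpS15, RpL35, RpS6) lie upstream.

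RpL34b, which encodes a protein of the large subunit, had the highest signal (2164, optimal rank 214), at -96 bp. It ranked 192, 253 and 222 in replicates 1, 2 and 3, so all 3 libraries placed it among their highest regions. RpS19b ranked next (signal 2163, rank 215), with replicate ranks of 244, 199 and 215. Its summit lay at -892 bp, in an intron of CG5854, and it was the member with the summit furthest from its own start. RpS27, a small subunit gene, had signal 1859 at -17 bp, with replicate ranks of 206, 669 and 207. RpL7, a large subunit gene, had signal 1837 at 29 bp, with replicate ranks of 200, 688 and 271. The same summit lay at -59 bp of Ripalpha, whose product is named for its interaction with replication protein A. Replicate 2 gave the lowest place to RpL34b, RpS27 and RpL7, and the highest place to RpS19b.

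RpL32, widely used as a reference gene for normalizing transcript levels, had signal 1627 at -187 bp and ranks of 374, 421 and 577. That summit lay closer to CG7943, at -122 bp. RpS20 had signal 1404 at -164 bp and ranks of 624, 435 and 836. These 2 summits had replicate 3 as the lowest and lay further upstream than most. RpS28b had signal 1349 at -779 bp and ranks of 620, 612 and 727. That summit lay closer to l(1)G0320, at -94 bp, and RpS28b had a further optimal summit at -12 bp of its own. RpL14 (signal 1125, ranks 587, 1637 and 763) and RpL23A (signal 1125, ranks 615, 1716 and 702) followed, at -58 and -88 bp. The RpL14 summit lay at -69 bp of Nelf-E, a subunit of the factor that pauses RNA polymerase, whose gene is transcribed away from RpL14. RpS29 closed the first 10, with signal 1105 at 2 bp and ranks of 626, 1049 and 1612.

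RpLP0, RpLP1 and RpLP2 encode the stalk proteins that recruit elongation factors to the ribosome, and RpLP0 had signal 719 at -47 bp. RpLP1 had signal 295 at -60 bp, with replicate ranks of 4793, 12634 and 2584. RpLP1 was therefore outside the top list of replicate 2 and inside the other 2. RpLP2 had signal 253 at -234 bp, with ranks of 6159, 7564 and 5873. RpLP0-like, whose yeast counterpart Mrt4 acts in ribosome assembly, was grouped with the stalk by its symbol only. It had signal 738 at -49 bp, and the same summit lay closer to 14-3-3zeta, at -38 bp. sta, the small subunit protein also known as the laminin receptor homologue, had signal 471 at -46 bp, with ranks of 1940, 5791 and 3221.

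Many summits lay in regions shared with another gene. At 49 of 72 members (68.1%) the summit was also within 1000 bp of a start of another gene, against 58.1% of all bound genes, and at 13 (18.1%) it was closer to that gene, against 28.8%. Some of these neighbours act in translation or growth themselves. The RpL13 summit (signal 539) lay at -84 bp of RpL13 and at 0 bp of Dref, the factor that binds the DRE. The RpL28 summit (signal 1044, -45 bp) was shared with the initiation factor gene eIF1, at -336 bp. The RpL36 summit (signal 426, 2 bp) was shared with Mybbp1A, at -292 bp. The RpS6 summit (signal 278, -469 bp) lay at -80 bp of bys, which encodes a factor of small subunit assembly. RpS6 encodes the substrate of S6 kinase, and its summit was among the 5 furthest from the start, with those of RpS19b, RpS28b, RpS15 (-578 bp, signal 287) and RpL35 (-555 bp, signal 361, at -34 bp of Rab18). Measured to the nearest optimal summit instead, the members just inside 1000 bp were RpS19b (892 bp), RpS15 (578 bp) and RpS6 (469 bp). Just outside were RpL22-like (1114 bp), RpS13 (1283 bp) and RpS28a (1402 bp).

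Replicate 2 ranked the members lower than the other libraries did. Of the 66 bound members with a summit within 100 bp of the optimal one in every replicate, replicate 2 gave the lowest rank at 47 (71.2%), where it did so at 29.6% of all bound genes. Replicate 3 was the lowest at 50.9% of all bound genes and at 22.7% of the members. The median rank of the members was 2438 in replicate 1, 4122 in replicate 2 and 3080 in replicate 3. Over all bound genes the medians were 3078, 3187 and 3560. The difference lay at summits close to the start: there replicate 2 was the lowest at 44 of 54 members, and at 3 of 12 members with a summit over 100 bp away. Among other bound genes with a summit within 100 bp of the start, it was the lowest at 426 of 1152 (37.0%). What sets replicate 2 apart was not tested. When the optimal peaks were required to lie in the top lists of the other 2 replicates only, 68 members were bound without replicate 2, where 27.3% of all genes were. Without replicate 1 it was 61 members and 25.8% of all genes, and without replicate 3 it was 62 members and 27.6%. The optimal list was made from all 3 replicates, so these counts leave out only the support of a replicate's top list.

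**Figure D3:**
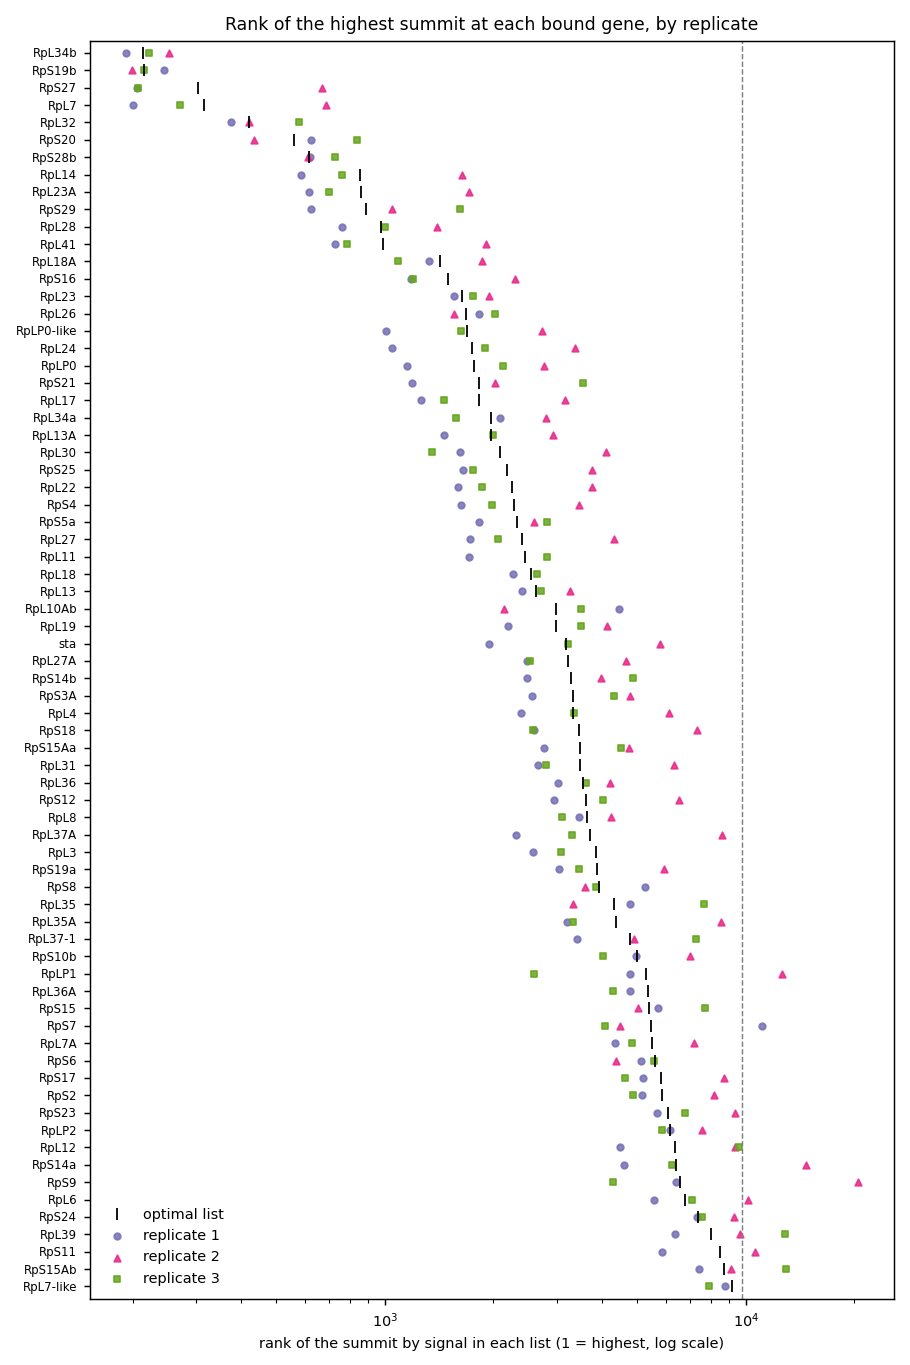
Rank by signal (log scale, 1 is the highest) of the summit matched within 100 bp in each replicate, for the 72 bound members in the order of the optimal list (black ticks). The dashed line marks rank 9766, the end of the top lists, and a missing point is a replicate with no region within 100 bp; replicate 2 (triangles) lies furthest right at 47 of the 66 genes with all 3 points.

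Of the members, 13 families of 27 genes share a number in their symbols. In 6 families all genes were bound (RpL7, RpL34, RpLP0, RpS14, RpS15A and RpS19), and in the other 7 a single gene was. Of the 66 genes without a paralog in the list, 53 were bound (80.3%), and of the 27 family genes, 19 were (70.4%).

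RpL34a had signal 665 at -78 bp, with ranks of 2092, 2794 and 1571, below those of RpL34b in every replicate. RpS19a, the copy that is broadly expressed, had signal 397 at -8 bp, with ranks of 3044, 5934 and 3445. The germline-enriched copy RpS19b stood above it in every replicate, at a summit in another gene. RpL7-like, related to a yeast assembly factor (Rlp7), had the lowest signal of all bound members (162, rank 9192, -374 bp), and that summit was at -3 bp of JhI-21. RpL7 and RpL7-like lie on the same arm, far apart.

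Near-identical copies need care, because reads that fit both cannot be assigned to 1 of them. RpS14a and RpS14b share 97.8% of their coding bases and their starts lie 1156 bp apart on X. RpS14b had signal 458 at -46 bp, with ranks of 2485, 3970 and 4879, and RpS14a had signal 243 at -53 bp, with ranks of 4601, 14670 and 6255. RpS14b was thus the higher in all 3 replicates. RpS15Aa and RpS15Ab share 98.2% of their coding bases. RpS15Aa had signal 435 at -22 bp (ranks 2762, 4736 and 4511), and the intron-free RpS15Ab had signal 173 at -40 bp (ranks 7443, 9094 and 12917). The RpS15Ab summit lay 4 bp from the start of Lsm10. Promoters of the paralogs were dissimilar, with 53.6% identical bases for RpS14a and RpS14b and 50.3% for RpS15Aa and RpS15Ab. Identity at the summits themselves was not measured, and whether reads were shared between the copies was not tested.

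In the partly bound families the gene with a summit had signal 493 for RpL10Ab, 608 for RpL22, 723 for RpL24 and 328 for RpL37-1. The values were 592 for RpS5a, 314 for RpS10b and 1349 for RpS28b. The RpL10Ab summit lay at -295 bp, closer to CG5946 and CG11597 (both -281 bp), and its nearest summit at -70 bp had signal 232. The RpS28b summit lay at -779 bp, closer to l(1)G0320, and its nearest summit at -12 bp had signal 413. Their partners without an optimal summit were RpL10Aa, RpL22-like, RpL24-like, RpL37-2, RpS5b, RpS10a, RpS28a and RpS28-like. RpL22-like, RpS5b and RpS10a are known as copies enriched in the germline, and RpL24-like as the counterpart of a yeast assembly factor (Rlp24). RpL10Aa, RpL37-2, RpS10a and RpS28a have no intron. RpS5b had replicate ranks of 10280, 10504 and 10362, just outside each top list, and a pooled region at rank 9975.

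The 21 members without an optimal summit were of several kinds. The first group was high in single replicates. RpS26, a protein at the mRNA exit of the small subunit, ranked 5096, 6249 and 6043, so that it stood in all 3 top lists. RpL9, of the large subunit, ranked 2531 and 2560 in replicates 1 and 3 and had no region in replicate 2. RpS27A, which encodes a fusion of ubiquitin with a small subunit protein, ranked 3323 and 3426 in replicates 1 and 3, and RpL29 ranked 3981 and 5117 there. These 4 genes had no region of the pooled list within 1000 bp, and none covering a start. They are 4 of the 75 members in the top lists of 2 or more replicates. Over all genes, 3.77% of the 4638 genes in the top lists of 2 or more replicates had no pooled region in the same way. Why the pooled list lacks them was not tested.

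RpL10, RpS3, RpS28a and RpS30 stood in the top list of 1 replicate. RpL10, a late-joining protein of the large subunit, ranked 6089 in replicate 1 only. RpS30 ranked 4338 in replicate 1 and 10388 in replicate 2. RpS3, a small subunit protein near the mRNA entry, ranked 7713, 19392 and 11416, and its pooled region 54 bp from the start ranked 9881, just outside the optimal list. RpS28a ranked 12998, 16023 and 8652, with regions at 511, 486 and 500 bp from its start, beyond the end of this gene of 304 bp.

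Further down were RpL40, the other ubiquitin fusion, with ranks of 10287, 13353 and 15128, and RpS28-like, with 13605, 13199 and 27810. The RpL40 regions lay at different places, at -645, -109 and -423 bp. Those of RpS28-like lay at 826, 529 and 611 bp, beyond the end of this gene of 424 bp. RpS13 ranked 16369 in replicate 1 and 13188 in replicate 3. RpL15 had a region in replicate 2 alone (rank 14085), RpL24-like in replicate 1 alone (22139) and RpL22-like in replicate 3 alone (26132). RpL5, RpL10Aa, RpL21, RpL37-2, RpL38 and RpS10a had none in any list. RpL5 encodes the protein that carries the 5S ribosomal RNA with RpL11, and RpL11 was bound with signal 570 at -41 bp.

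Some unbound members lay in long stretches with no optimal summit. RpL15 was 1254551 bp from the nearest one, RpL38 605891 bp, RpL5 405323 bp, RpL10 216585 bp and RpL21 116506 bp. RpL5, RpL15 and RpL38 are known as genes of the pericentromeric heterochromatin. Over 100000 bp from a summit lay 5 of 93 members (5.38%), against 1.85% of all genes. Whether reads map uniquely in these stretches was not tested.

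**Figure D4:**
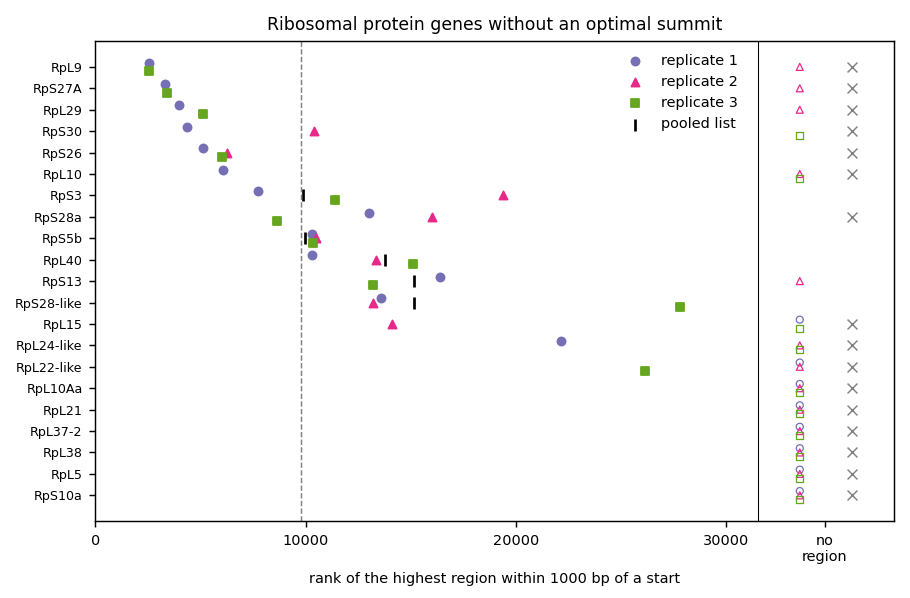
Rank of the highest region within 1000 bp of a start for the 21 members without an optimal summit, in each replicate (coloured symbols) and in the pooled list (black ticks). The dashed line marks rank 9766, and open symbols and crosses at the right mark lists with no region; RpL9, RpS27A, RpL29, RpS30, RpS26, RpL10, RpS3 and RpS28a have at least 1 replicate left of the line.

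The promoters of the members carried the motifs known for them. A TCT start was found at 75 of 93 members (80.6%, 71.5 to 87.4) and at 6.35% of all protein-coding genes. A DRE stood in the promoters, from 250 bases before to 50 from the outermost start, of 28 members (30.1%) and of 9.36% of all genes. Ohler 1 stood in those of 15 (16.1%) and of 7.70% of all genes, and a forkhead core in those of 35 (37.6%) and of 46.2% of all genes. Bound members had a TCT start at 83.3% and unbound members at 71.4%, and their DRE shares were 34.7% and 14.3%. For the forkhead core the shares were 38.9% of bound and 33.3% of unbound members.

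Seen from the motif, 60 of 75 members with a TCT start were bound (69.6 to 87.5%) and 12 of 18 without (66.7%, 43.7 to 83.7). Of the 810 other genes with a TCT start, 41.1% were bound. Of members with a DRE 25 of 28 were bound, and without it 47 of 65, where the shares of all genes were 47.9% with and 31.2% without. Of members with Ohler 1 14 of 15 were bound, and without it 58 of 78, where the shares of all genes were 48.9% and 31.4%. Higher shares with these motifs were thus also seen over all genes. Where a TCT start was present, 58 of 60 summits lay upstream of it, with a median position of -59.0 bp and the middle 50% between -91.0 and -48.8 bp.

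The shares around the summits were as follows. Within 100 bp of the summit a DRE was found at 20 of 72 bound members (27.8%), at 7.08% of the summits of all bound genes and at 2.97% of all optimal summits. Ohler 1 was found at 12 (16.7%), at 4.75% and at 2.19%. A forkhead core, the motif that forkhead factors recognise, was found at 17 (23.6%, 15.3 to 34.6), at 38.1% and at 36.0%. The GC content differed too, with a median of 42.0% in windows of 201 bp at the members' summits and of 35.3% at all optimal summits, and its part in these shares was not tested. A match is a run of letters and not a binding site.

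**Figure D5:**
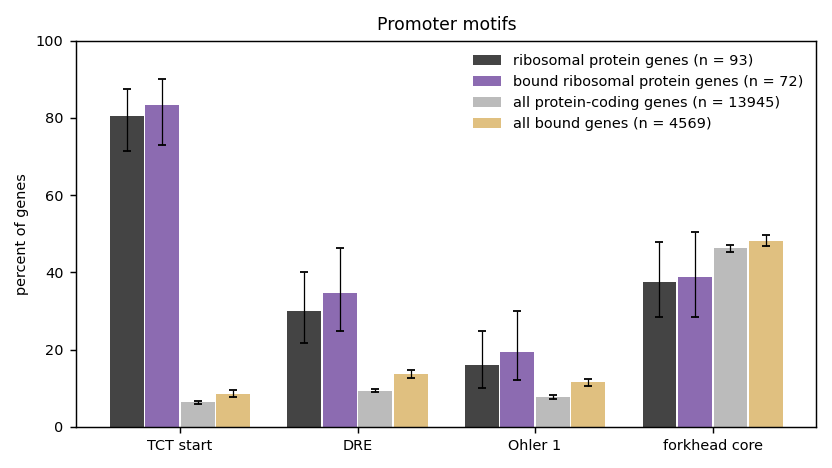
Percent of genes with each motif in the promoter, with 95% Wilson intervals, for all and for bound ribosomal protein genes and for all and for bound protein-coding genes. The TCT start was at 80.6% of the members against 6.35% of all genes, and the forkhead core was at 37.6% against 46.2%.

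Elongation, assembly and mitochondrial ribosomal protein genes had shares between those of the members (77.4%) and of all genes (32.8%). A list of 10 genes taken as regulators had a higher share, but it is too short to be ranked against the members. All these lists were chosen with earlier results of these data known. The lists share some summits with the members and with each other. The summits of bys, Mybbp1A and Dref are those given above for RpS6, RpL36 and RpL13. Nop60B shares its summit with mRpS17, and Ns1 shares its summit with mRpS11. Of 11 elongation and release factor genes 7 were bound, among them eEF1gamma (signal 867, -7 bp), eEF1alpha1 (508, -53 bp) and eEF2 (442, -16 bp). Of 28 ribosome assembly genes found in the annotation (31 were listed) 18 were bound, with the highest signal at eIF6 (4188, -98 bp), whose product keeps the subunits apart, and at the nucleolar GTPase gene Ns2 (2221, -165 bp). Of 73 mitochondrial ribosomal protein genes 44 were bound (60.3%), led by mRpL41 (5996, -142 bp). The highest signals of the assembly and mitochondrial lists thus exceeded that of RpL34b. Of 10 genes listed by hand as regulators of ribosomal protein promoters and mRNAs 9 were bound, and whether each has that role was not tested. The signals of these 9 were 4930 for larp (-329 bp), which encodes a protein that binds ribosomal protein mRNAs, 4676 for Adf1 (842 bp) and 1344 for Trl (the GAGA factor). They were 982 for M1BP, 934 for crp, 620 for BEAF-32, 539 for Dref, 451 for Thor and 300 for Trf2. Only pho, which encodes a Polycomb group DNA-binding protein, had no optimal summit.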

How the data were processed

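ChIP-seq peak lists of 3 replicates of foxo-eGFP larvae, their pool and the optimal list were used on dm6. The peak signal (column 7) is the authors' own value, deposited without a stated normalization. Per the deposited listings, it was the replicate and pooled lists together that gave the optimal list. Aligner, peak caller and IDR cutoff were not given in the sources used, and the depth is unknown. Genes came from Ensembl release 115, and the sequences from the RefSeq copy of the same assembly. Each gene took its highest optimal summit within 1000 bp of a start. Replicate summits were matched within 100 bp. Python 3.11.15, numpy 2.4.6, pandas 2.3.3, Biopython 1.88, scipy 1.17.1 and matplotlib 3.10.9 were used, and the gene assignment was tested on simulated summits. Named with values were the 10 highest bound members, the 5 with the furthest summits, all unbound members, paralogs, stalk genes, ubiquitin fusions and sta. Shared-promoter and snoRNA examples, RpS3A, RpL11 and the genes named from the other lists were chosen after their values were seen. The members and lists were chosen with earlier results of these data known. The dm3 lists were not used.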

Additional observations from a re-analysis of the deposited data

How the results depend on the processing

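Of 80 alternatives, 69 kept a value within its limits, 11 moved one and 0 reversed one. The limits were 1.5 times for a count, 1 SD between replicates for positions, percentiles and upstream shares, and the Wilson interval for motif shares, so they differ in strictness. The number of bound members was 70 with a window of 500 bp (28.7% of all genes), 78 with 2000 bp (38.8%), 72 with the outermost start (30.7%), 52 with the 4883 highest peaks (22.0%) and 60 with peaks in all 3 top lists (24.8%). It was 61 to 68 without 1 replicate, which means optimal peaks in the top lists of the other 2. It was 70 of 88 without the genes ending in "-like". The median signal percentile, 66.8 among the optimal peaks, was 76.9 with the 4883 highest peaks, which follows from leaving out the lower ones. The share of upstream summits, 87.5%, was 78.2% with 2000 bp and 76.4% with the outermost start. Families with all genes bound numbered 6, but 3 with the 4883 highest peaks, 3 with peaks in all 3 top lists and 3 to 5 without 1 replicate (3 without replicate 1), since those settings keep fewer peaks. Ohler 1, at 16.1% of members, was at 25.8% within 500 bp of the outermost start. The forkhead core, at 37.6%, was at 76.3% there and at 23.6% within 100 bp of the summits. The window of 500 bp either side is longer and can hold more matches in any gene. No share of all genes is given for it, so its values are not to be read as traits of the members. The TCT start, at 80.6%, was at 60.2% within 5 bp and at 88.2% within 25 bp of a start, where all genes had 3.31% and 14.2%. No paired analysis was possible because the 3 replicates form 1 group.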
